A study of Mus musculus with 6 samples.

Results

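The 10 genes described here, called members, encode enzymes for the synthesis of serine, asparagine and proline and the mitochondrial one-carbon pathway: Phgdh, Psat1, Psph, Shmt2, Mthfd2, Mthfd1l, Aldh1l2, Asns, Aldh18a1 and Pycr1. They were taken by gene symbol from the deposited table, which held all 10 among its 18828 genes, and all 10 passed the filter on low counts that left 14444 genes for testing. RNA sequencing had been done on spleen T cells of mice labelled WT and FVB. For the urolithin A group, the cells were activated with beads carrying antibodies to CD3 and CD28 and were given 50 µM urolithin A, a gut bacterial metabolite of ellagitannins known to induce mitophagy, over the same 48 h. Cells of the DMSO group had the same beads and DMSO, the usual solvent, so every library comes from stimulated cells. There were 3 libraries per group, with the letters a, b and c, and values per library are always given in that order. The labels do not say whether a letter is an animal or a culture. The p-values therefore measure the spread between these libraries, which may be technical. The culture medium contained a supplement of non-essential amino acids, a class that includes serine, asparagine and proline.

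Resting T cells make little of these enzymes, and activation is known to induce them as cells begin to divide. Serine is drawn off glycolysis in the cytosol. In mitochondria its side chain is then passed to folate, which carries the one-carbon unit towards purine and thymidylate synthesis. Asparagine is made from aspartate, and proline from glutamate. Many of these genes are known targets of ATF4, a transcription factor that is translated when amino acids run short or mitochondria are stressed.

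Library totals lay between 12738059 and 19081219 counts. Of these the members together held 17373 to 24194 counts in urolithin A libraries and 30502 to 37603 in DMSO libraries. The T cell gene Cd3e was at 65.8 ± 3.15 CPM (counts scaled to a common library total) with urolithin A and 61.2 ± 3.02 CPM with DMSO (SD, n = 3 each), and all 9 listed T cell markers had counts in every library, 1 being called lower and 2 higher with urolithin A. Ribosomal RNA (Rn18s) made up 3.97% of urolithin A library a and 17.6% of DMSO library b, against at most 0.887% of any other library. Of 6 listed B cell markers 3 were higher with urolithin A and none lower, and their summed level was 206 to 249 CPM with urolithin A and 162 to 179 CPM with DMSO, most of it from Ighm. Summed myeloid markers lay at 57.6 to 60.7 CPM with urolithin A and 51.1 to 54.7 CPM with DMSO, most of it from Cst3, while the defining myeloid genes Lyz2, Csf1r, Itgam and Adgre1 stayed under 1 CPM in every library. Summed NK cell markers lay at 25.1 to 30.03 CPM with urolithin A and 24.3 to 25.7 CPM with DMSO. Most of this came from Eomes, while Ncr1, Klrb1c and Klra1 had at most 1.46 CPM in any library. Summed erythroid markers lay at 3.63 to 4.14 CPM with urolithin A and 2.02 to 2.504 CPM with DMSO, and 1 of 2 tested erythroid markers was called higher, while no myeloid (2 tested) or NK cell (3 tested) marker was called. The part of other cell types in the results was not tested.

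All 10 members were lower with urolithin A. In a limma voom fit over all tested genes, each had an adjusted p under 0.05, where 16.0% of all genes were called lower, 17.7% higher and 33.7% in either direction. The 3 urolithin A values of each member lay below its 3 DMSO values, as they did for 22.7% of all genes. The median log2 fold change of the members was -0.79, against 0.01 over all tested genes. Their summed level was 1259, 1078 and 1309 CPM with urolithin A, against 2027, 2122 and 1995 CPM with DMSO. In such bulk samples, fewer cells that express a gene and less of its RNA per cell cannot be told apart. When libraries were scaled by total count alone, all 10 members were still called lower, although 29.4% of all called genes were then lower, against 47.4% with the main scaling. Without urolithin A library a and DMSO library b, which had the most ribosomal RNA, 9 of 10 were called.

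**Figure D1:**
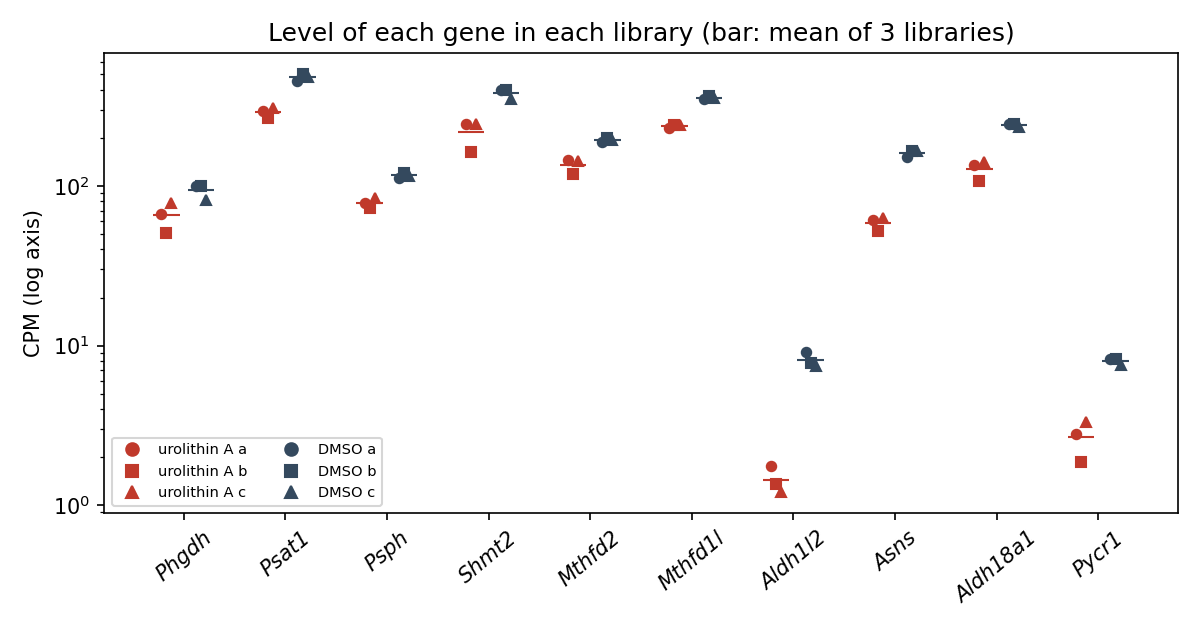
Level of each member in each of the 6 libraries, in CPM on a log axis, with urolithin A (red) left of DMSO (dark); symbols mark the library letter and bars the mean of 3 libraries. In every gene the red points lie below the dark ones, and Aldh1l2 and Pycr1 lie far below the other 8 genes.

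The members did not move by one common amount. Aldh1l2, Pycr1 and Asns had log2 fold changes from -2.45 to -1.46, and the other 7 from -0.93 to -0.53. The 95% intervals of these 3 genes did not overlap those of the other 7. Among all 14444 tested genes, Aldh1l2 had the rank 4 counted from the lowest log2 fold change, Pycr1 the rank 70 and Asns the rank 113, while Mthfd2 had the rank 1347.

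**Figure D2:**
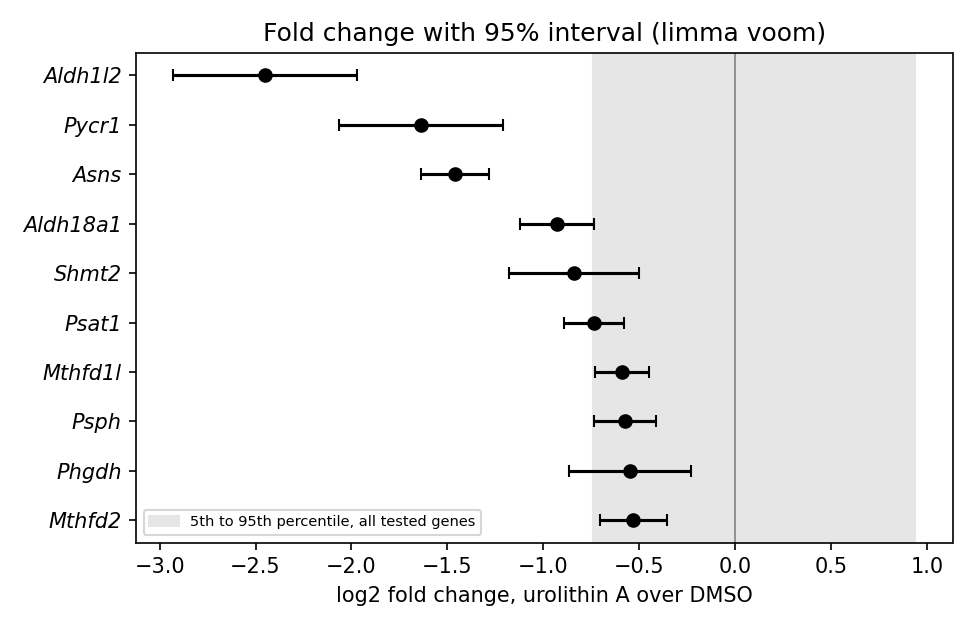
Log2 fold change of each member, urolithin A over DMSO, with its 95% interval from limma voom; the grey band spans the 5th to the 95th percentile of all tested genes (-0.74 to 0.94). Aldh1l2, Pycr1 and Asns stand apart at the left, and every interval lies below 0.

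The promoters of the members were searched for 2 motifs, and the 3 that held one are shown. The first is TGATGNAA, the core of the composite site at which ATF4 pairs with C/EBP factors, and the second is CACGTG, the E-box that MYC and related factors bind. Both strands were searched, CACGTG reads the same on each, and no match of one overlapped the other. RefSeq promoters on GRCm38.p6, each running from 250 bases before to 50 bases after an annotated start, were found for 9 of 10 members, Aldh1l2 having no entry. TGATGNAA was present for 2 of the 9 genes, Asns and Pycr1, and in 3.97% of all 32851 promoters. CACGTG was present for 1 of the 9, Aldh18a1, and in 7.15% of all promoters. The sequences run 5′ to 3′ on the strand of the gene, with the motif in capitals. The Asns promoter lies on the minus strand at chr6:7693160-7693459 and holds its match 23 to 16 bases upstream of the start. The Pycr1 promoter lies on the minus strand at chr11:120643699-120643998, with the match 103 to 96 bases upstream. The Aldh18a1 promoter lies on the minus strand at chr19:40588414-40588713, with the match 59 to 54 bases upstream.
Asns: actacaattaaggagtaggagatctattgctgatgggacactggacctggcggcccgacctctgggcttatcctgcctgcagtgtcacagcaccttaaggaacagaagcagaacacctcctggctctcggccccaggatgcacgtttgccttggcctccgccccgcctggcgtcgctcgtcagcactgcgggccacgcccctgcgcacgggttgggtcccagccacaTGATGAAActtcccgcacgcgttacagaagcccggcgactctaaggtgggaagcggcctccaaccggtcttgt
Pycr1: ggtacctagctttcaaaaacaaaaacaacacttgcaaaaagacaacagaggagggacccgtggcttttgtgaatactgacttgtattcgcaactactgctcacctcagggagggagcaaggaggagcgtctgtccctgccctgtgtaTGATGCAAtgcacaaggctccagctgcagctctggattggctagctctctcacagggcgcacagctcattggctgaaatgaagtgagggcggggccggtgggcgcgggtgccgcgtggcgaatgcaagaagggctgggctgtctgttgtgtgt
Aldh18a1: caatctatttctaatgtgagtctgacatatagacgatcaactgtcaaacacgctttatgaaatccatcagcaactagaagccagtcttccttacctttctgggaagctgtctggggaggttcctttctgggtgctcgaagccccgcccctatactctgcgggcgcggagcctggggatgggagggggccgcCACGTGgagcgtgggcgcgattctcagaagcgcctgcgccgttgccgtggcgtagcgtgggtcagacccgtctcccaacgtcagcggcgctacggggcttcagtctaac
These promoter positions and the gene coordinates of the table, differ in their source and cannot be read together. A match in these windows describes the sequence and does not show that a factor bound there. Asns and Pycr1 were also among the 3 members with the lowest log2 fold changes, and no test was made of that.

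The 3 enzymes of serine synthesis fell to between 60.1% and 69.5% of their DMSO means. Phgdh, the dehydrogenase that diverts phosphoglycerate from glycolysis, had 67.2, 50.8 and 78.3 CPM with urolithin A, against 100.3, 100.2 and 82.1 CPM with DMSO. Library c came near to overlap, since its value with urolithin A was just below its value with DMSO. The log2 fold change of Phgdh was -0.55 ± 0.14 (SE, limma adjusted p = 0.0138), the least certain call among the members. It was lost without DMSO library a (adjusted p = 0.0584) and without both urolithin A library a and DMSO library b (adjusted p = 0.0674), and over all alternatives its adjusted p ran from 0.00080 to 0.0674.

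Psat1, the aminotransferase of the next step, was the most abundant of the 3. It had 293, 266 and 307 CPM with urolithin A, against 457, 504 and 482 CPM with DMSO. The groups stood well apart, and the log2 fold change was -0.74 ± 0.07 (limma adjusted p = 3.26e-06). Psph, the phosphatase that releases serine, had 78.6, 73.3 and 83.9 CPM with urolithin A, against 113, 121 and 116 CPM with DMSO. Its highest urolithin A library thus stayed below its lowest DMSO library, and the log2 fold change was -0.57 ± 0.08 (limma adjusted p = 4.86e-05). Psph overlaps the chaperonin gene Cct6a on the other strand by 452 bases in the table. Cct6a had 8147 to 13896 counts per library, against 1114 to 2193 of Psph, and a called log2 fold change of -0.31. No source used here says whether counting used the strand, so reads of that stretch are uncertain.

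In the mitochondrial one-carbon chain, Shmt2, which splits serine into glycine and a folate-bound carbon, had the widest relative spread of the chain between urolithin A libraries. It had 244, 164 and 246 CPM with urolithin A, against 400.1, 398 and 353 CPM with DMSO. Library b was the lowest with urolithin A, yet libraries a and c were also below every DMSO value. The log2 fold change was -0.84 ± 0.15 (limma adjusted p = 0.00256). Mthfd2, the dehydrogenase and cyclohydrolase that follows, had 145, 118 and 143 CPM with urolithin A and 189, 201 and 194 CPM with DMSO. The groups did not overlap, and the log2 fold change of -0.53 ± 0.08 was the smallest in size among the members (limma adjusted p = 1.96e-04). Within Mthfd2 the table places Gm43890, an unconfirmed transcript on the same strand with 38 to 105 counts per library, so reads in that stretch may be divided.

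Mthfd1l, which releases formate for export to the cytosol, had the tightest values of the chain. It was at 230, 242 and 242 CPM with urolithin A, against 352, 369 and 354 CPM with DMSO. The gap between the groups was wider than the range within either, and the log2 fold change was -0.59 ± 0.07 (limma adjusted p = 9.15e-06).

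Aldh1l2 (ENSMUSG00000020256, chromosome 10 from 83323314 to 83370004 in the table), which oxidises the folate-bound carbon to carbon dioxide and yields NADPH in mitochondria, fell furthest. It rested on 34, 24 and 16 counts with urolithin A, against 157, 111 and 141 counts with DMSO. In CPM these were 1.77, 1.36 and 1.21 with urolithin A and 9.11, 7.72 and 7.48 with DMSO. Every urolithin A value was thus at a low level and below all DMSO values, and the mean was 17.8% of the DMSO mean (log2 fold change -2.45 ± 0.22, limma adjusted p = 1.41e-06). Over the alternatives its log2 fold change ran from -2.66 to -1.90, the smaller change being that with 1 added to the CPM. The table has Aldh1l2 overlap D10Wsu102e on the other strand by 1056 bases. Reads there are uncertain for the same reason as for Psph. D10Wsu102e had 1092 to 1973 counts per library and a log2 fold change of -0.39.

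Asns, the only asparagine synthetase, had 61.3, 52.4 and 62.8 CPM with urolithin A, against 152, 167 and 165 CPM with DMSO. The spread within each group was small beside the gap, and the mean fell to 36.5% of the DMSO mean. Its adjusted p was the smallest among the members (log2 fold change -1.46 ± 0.08, limma adjusted p = 1.37e-08). Asns (ENSMUSG00000029752) lies on chromosome 6 from 7675169 to 7693254 in the table, with no other listed gene across it.

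Of the proline genes, Aldh18a1, whose product turns glutamate into the precursor of proline and ornithine, had 136, 108 and 141 CPM with urolithin A, against 246, 246 and 234 CPM with DMSO. Its groups were separated by more than the range within either one (log2 fold change -0.93 ± 0.09, limma adjusted p = 3.15e-06). Pycr1 (ENSMUSG00000025140, chromosome 11 from 120526538 to 120534595 in the table) encodes the mitochondrial reductase of the last step. It was a gene of low level, with 54, 33 and 44 counts with urolithin A, against 143, 119 and 142 counts with DMSO. That is 2.81, 1.87 and 3.32 CPM with urolithin A and 8.30, 8.28 and 7.53 CPM with DMSO. Even its highest urolithin A value was far below its lowest DMSO value, and the log2 fold change was -1.64 ± 0.20 (limma adjusted p = 2.22e-05).

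Within the urolithin A group the members tended to be low together in one library. Library b held the lowest value of 8 of 10 members and the highest of none, with deviations from the group mean averaging -0.19 on the log2 scale, and library c held the highest value of 8. In the DMSO group, library b held the highest value of 6 members and library a of 4, and mean deviations were smaller, from -0.05 to 0.04. Without urolithin A library b all 10 members were called lower as well.

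Per kilobase of merged exons, the order of levels was much alike in both groups. Shmt2 at 70.1 ± 15.1 and Psat1 at 67.9 ± 4.88 CPM per kb led with urolithin A, and the same genes at 123 ± 8.62 and 113 ± 5.53 CPM per kb led with DMSO. Their ranges overlapped in both groups, and the order of these 2 turned round with the longest transcript as length. Mthfd1l followed at 53.7 ± 1.53 CPM per kb with urolithin A and 80.8 ± 2.03 CPM per kb with DMSO, apart from its neighbours in both groups. With the longest transcript as length, Mthfd2 came just before Mthfd1l with urolithin A, at 64.9 and 64.6 CPM per kb, and Mthfd2 and Asns came before Aldh18a1 with DMSO. Asns had the rank 7 with urolithin A, at 21.5 ± 2.05 CPM per kb, and the rank 5 with DMSO, at 59.0 ± 2.85 CPM per kb. With DMSO the ranges of Aldh18a1 and Asns overlapped, as did those of Asns and Mthfd2. With urolithin A, neighbouring ranges overlapped all the way along the order Mthfd2, Aldh18a1, Phgdh, Asns and Psph. Pycr1 at 0.677 ± 0.186 and Aldh1l2 at 0.193 ± 0.039 CPM per kb closed the order with urolithin A, as they did with DMSO at 2.04 ± 0.111 and 1.08 ± 0.117 CPM per kb.

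**Figure D3:**
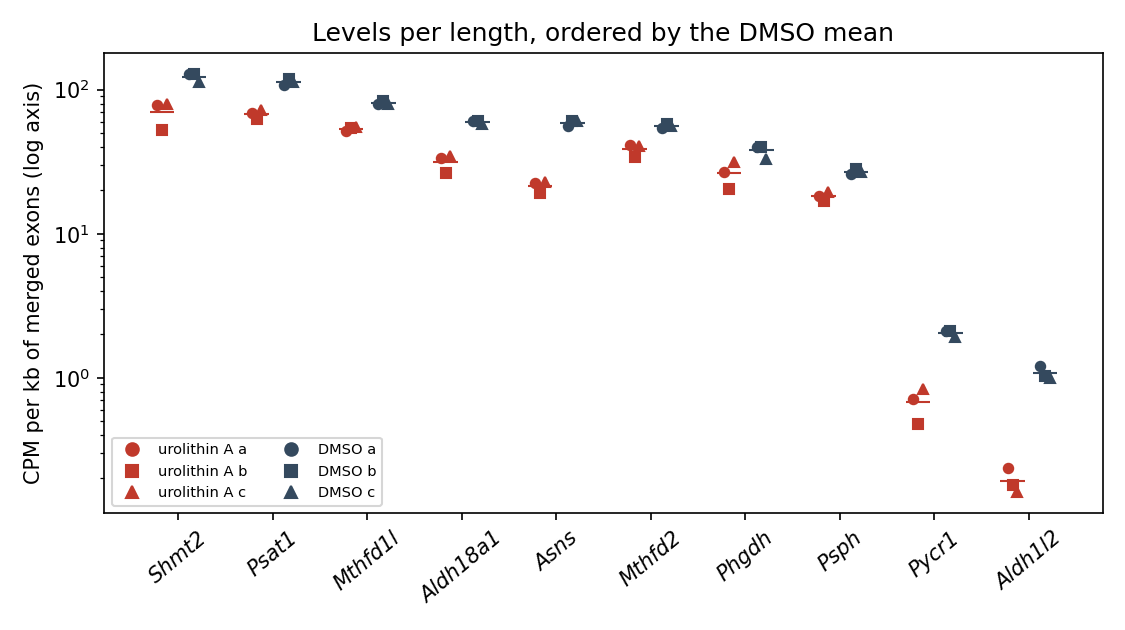
Level of each member per kilobase of merged exons, in CPM per kb on a log axis, ordered by the DMSO mean; urolithin A (red) stands left of DMSO (dark) and bars are means of 3 libraries. Shmt2 and Psat1 lead and Pycr1 and Aldh1l2 close the order in both groups. The mean of Asns is above those of Mthfd2 and Phgdh with DMSO and below them with urolithin A. The ranges of Asns and Mthfd2 overlap with DMSO, and those of Phgdh and Asns overlap with urolithin A. With the longest transcript as length, Asns is below Mthfd2 in both groups.

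Ratios of levels per kilobase between steps of one pathway are given as a description, with no test made. They use merged exons, and their size depends on that choice of length, though overlap between the groups does not. With the longest transcript as length, Mthfd1l and Mthfd2 were at 64.6 and 64.9 CPM per kb with urolithin A. With DMSO they were at 97.2 and 93.4 CPM per kb. Aldh1l2 stood at 0.00498 ± 0.000933 of the Mthfd2 level with urolithin A, against 0.0194 ± 0.00257 with DMSO, and the groups did not overlap. Mthfd2 stood at 0.564 ± 0.071 of the Shmt2 level with urolithin A and 0.454 ± 0.034 with DMSO, again without overlap. Mthfd1l over Mthfd2 overlapped between groups, at 1.40 ± 0.184 with urolithin A and 1.45 ± 0.0133 with DMSO. In serine synthesis, Phgdh over Psat1 overlapped as well, at 0.385 ± 0.055 with urolithin A and 0.336 ± 0.042 with DMSO. Psph over Psat1 did not overlap, at 0.267 ± 0.00355 with urolithin A and 0.239 ± 0.00321 with DMSO. In proline synthesis, Pycr1 stood at 0.0213 ± 0.00323 of the Aldh18a1 level with urolithin A and 0.0343 ± 0.000859 with DMSO, also without overlap.

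Several members have a paralog that works in another compartment or at the same step, and a ratio of a pair within a library does not depend on how libraries are scaled, apart from the 0.5 CPM added to each value. Of 5 pairs compared, 4 had lower ratios in all 3 urolithin A libraries than in any DMSO library. Every member was itself lower in this way, as were 22.7% of all genes, so such a ratio can repeat the member's own fall. The share of other gene pairs that separate so was not computed. An exact two-sided permutation test of 3 against 3 libraries cannot go below p = 0.1, which these 4 pairs reached (Benjamini-Hochberg adjusted p = 0.125 over 5 pairs), so no pair could pass 0.05.

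The pair that moved most was Aldh1l2 and its cytosolic relative Aldh1l1. Their log2 CPM ratio was -2.75, -2.69 and -3.21 with urolithin A, against 0.17, -0.04 and -0.01 with DMSO. The ratio was thus 7.58-fold higher with DMSO. Aldh1l1 itself was higher with urolithin A, at 13.8 ± 2.04 CPM against 7.84 ± 0.277 CPM with DMSO (log2 fold change 0.80 ± 0.14, limma adjusted p = 5.06e-04). Pycr1 had a log2 ratio to the cytosolic Pycr3, listed in the table as Pycrl, that differed by -1.24. Pycrl was at 24.5 ± 3.53 CPM with urolithin A and 28.5 ± 2.01 CPM with DMSO (limma adjusted p = 0.130).

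The log2 ratio of Mthfd1l to the cytosolic Mthfd1 differed by -0.41 between the groups. That ratio was 0.18, 0.62 and 0.19 with urolithin A, against 0.74, 0.72 and 0.76 with DMSO, so library b lay close to the DMSO values. Mthfd1 was not called (log2 fold change -0.18 ± 0.10, limma adjusted p = 0.179). Mthfd2 had a log2 ratio to Mthfd2l that differed by -0.62, resting on 16 to 36 counts of Mthfd2l per library. Shmt2 and the cytosolic Shmt1 were the exception. Their log2 ratio was 1.79, 1.40 and 1.81 with urolithin A and 1.60, 1.53 and 1.43 with DMSO, with overlap and an exact permutation p of 0.4. Shmt1 was itself at 67.3 ± 4.87 CPM with urolithin A and 133 ± 3.83 CPM with DMSO (log2 fold change -0.99 ± 0.08, limma adjusted p = 3.02e-07).

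**Figure D4:**
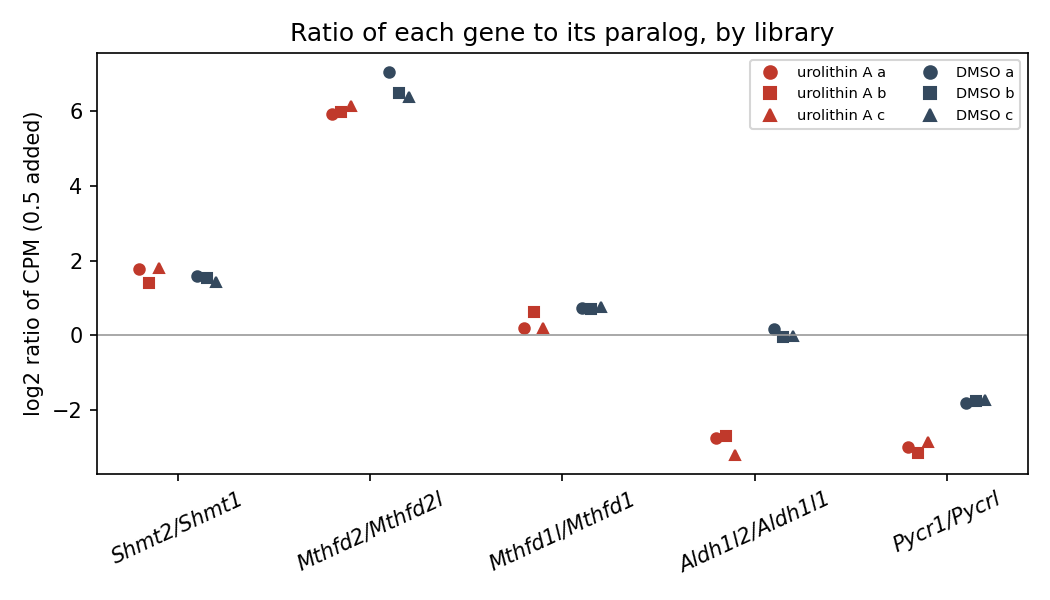
Log2 ratio of the CPM of each member to that of its paralog in each library, with 0.5 CPM added; urolithin A (red) stands left of DMSO (dark). In 4 of 5 pairs the red points lie below the dark ones, by most for Aldh1l2 over Aldh1l1, and for Shmt2 over Shmt1 they overlap.

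The genes around the members in the same pathways had smaller median changes, with calls in both directions for folate and for proline metabolism. Their counts stand against 16.0% of all tested genes called lower and 17.7% called higher, and no list was tested as a set. Of 10 tested genes of serine and glycine metabolism, 5 fell and none rose, and the median of their log2 fold changes was -0.21. Over the alternatives the count that fell was 4 to 6, and none rose. Shmt1 fell as described, and Gcat, which acts on threonine breakdown to glycine, had 8.71 ± 0.959 CPM with urolithin A and 15.6 ± 1.00 CPM with DMSO (log2 fold change -0.85 ± 0.12, limma adjusted p = 1.13e-04). Cth, which makes cysteine from cystathionine and was named after its value was seen, had the lowest log2 fold change of this list, -1.94 ± 0.29, at 0.973 ± 0.176 CPM with urolithin A and 3.90 ± 0.872 CPM with DMSO.

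Of 16 tested genes of the folate cycle and one-carbon use, 3 fell and 5 rose, with a median of -0.00, so the share that fell was near that of all genes. Slc19a1, the reduced folate carrier, fell to 27.8 ± 4.23 CPM with urolithin A, against 56.3 ± 6.20 CPM with DMSO (log2 fold change -1.02 ± 0.12, limma adjusted p = 1.84e-05). Mat2a, which makes S-adenosylmethionine, fell by 0.60 ± 0.07 on the log2 scale. Among those that rose was Aldh1l1. The count of genes that rose depended on single libraries and on processing. It was 2 with total count scaling and 3 with no count filter or with the library letter as a block. It was also 3 without urolithin A library a, 2 without urolithin A library c or without any one DMSO library, and 1 without urolithin A library a and DMSO library b.

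Of 8 tested genes of aspartate, asparagine and glutamine metabolism, 2 fell and none rose (median -0.17). Gls2, a glutaminase, had a log2 fold change of -0.65 ± 0.11, and Asrgl1, an asparaginase, of -0.26 ± 0.08. Asrgl1 lost its call without urolithin A library a or any one DMSO library (adjusted p of 0.0527 to 0.0965), which left 1. It also lost it without both urolithin A library a and DMSO library b (adjusted p = 0.211) and with total count scaling (adjusted p = 0.489). The count that fell was 3 without urolithin A library b or c, and 1 gene of the list rose in 4 of the 16 alternatives. Of 5 tested genes of proline and ornithine metabolism, Prodh, which degrades proline, fell by 0.66 ± 0.20, and Aldh4a1, the next enzyme of that breakdown, rose by 0.79 ± 0.12 on the log2 scale. The call of Prodh was lost without DMSO library a (adjusted p = 0.0756) and without DMSO library b (adjusted p = 0.0581), as well as without both urolithin A library a and DMSO library b (adjusted p = 0.0974) and with total count scaling (adjusted p = 0.0890).

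Of 13 listed genes of the ATF4 axis, 6 fell and 2 rose (median -0.30). The count that fell was 4 with total count scaling, and also without both urolithin A library a and DMSO library b. It was 5 without urolithin A library c or DMSO library b, and 7 without urolithin A library a. The count that rose stayed at 2. Atf4 itself was at 291 ± 26.4 CPM with urolithin A and 538 ± 16.8 CPM with DMSO (log2 fold change -0.89 ± 0.08, limma adjusted p = 6.91e-07). The pseudokinase gene Trib3 and the stress factor gene Ddit3 fell by 1.73 ± 0.10 and 1.07 ± 0.09 on the log2 scale. The kinase genes Eif2ak3 and Eif2ak2, whose products phosphorylate eIF2α and so raise ATF4 translation, rose by 0.71 ± 0.08 and 0.52 ± 0.08. Myc, a further known activator of serine and one-carbon genes, was at 137 ± 23.4 CPM with urolithin A and 211 ± 10.3 CPM with DMSO (log2 fold change -0.64 ± 0.11, limma adjusted p = 6.35e-04). The part of ATF4 or MYC in the fall of the members was not tested.

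Proliferation genes had a smaller median change than the members. Of 14 tested, 4 fell and none rose, where 16.0% of all tested genes were called lower and 17.7% higher. Their median log2 fold change was -0.15. Their summed level was 7413 to 7595 CPM with urolithin A and 7713 to 8023 CPM with DMSO, without overlap. Tk1, thymidine kinase, and Ccna2, cyclin A2, had log2 fold changes of -0.36 ± 0.09 and -0.30 ± 0.07. The count of 4 became 2 without urolithin A library a, DMSO library b or DMSO library c, and 0 without both urolithin A library a and DMSO library b or with total count scaling. It became 5 with median-of-ratios scaling, with no count filter and without urolithin A library b or c. Without urolithin A library c, 1 proliferation gene was also called higher. The part of proliferation in the fall of the members was not tested.

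**Figure D5:**
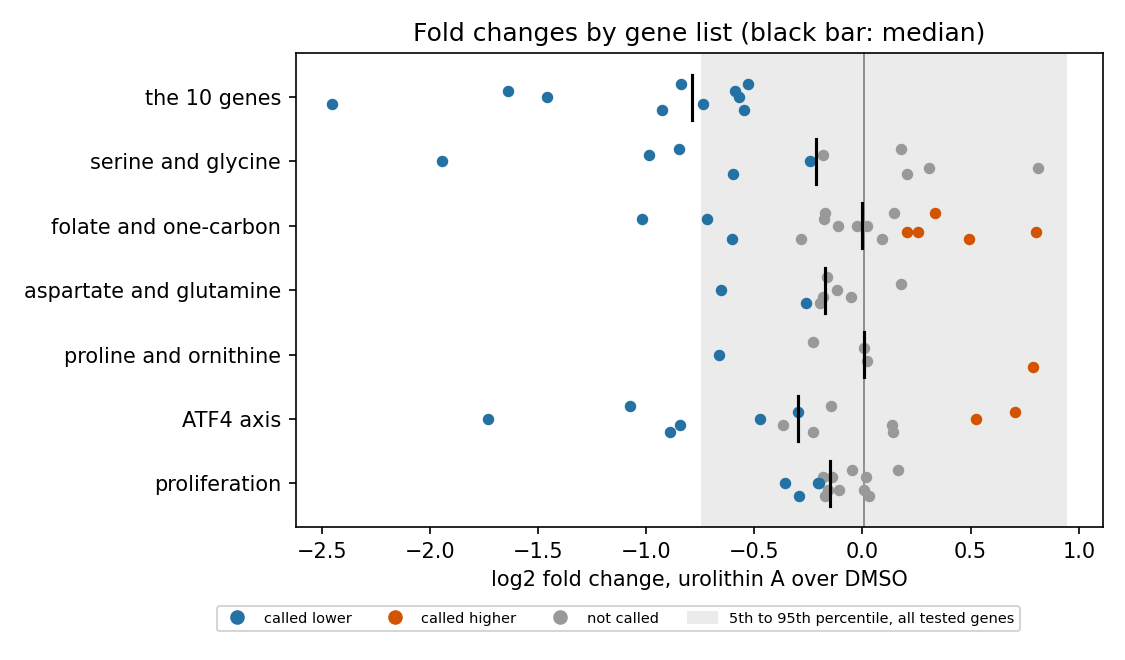
Log2 fold change, urolithin A over DMSO, of each tested gene of the 10 members and of 6 neighbouring lists; blue points were called lower, orange points higher and grey points neither, black bars are medians, and the grey band spans the 5th to the 95th percentile of all tested genes. All 10 points of the top row are blue with a median of -0.79, and the medians of the other lists lie between -0.30 and 0.01.

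The non-member genes with profiles nearest to the mean of the members were found by Euclidean distance over the log2 CPM of the 6 libraries, each gene centred on its mean. The 5 nearest were Shmt1 (distance 0.0998), Slc3a2 (0.103), Lonp1 (0.110), Fabp5 (0.118) and Atf4 (0.128). Slc3a2 is the heavy chain of amino acid transporters, Lonp1 a mitochondrial protease and Fabp5 a fatty acid binding protein. Their log2 fold changes were -0.94 ± 0.09, -0.95 ± 0.07 and -1.01 ± 0.10. All 5 genes were picked for closeness to the members in these same libraries, so similar falls follow from the choice. Among the members, Aldh18a1 lay nearest to the mean of the members at 0.0869, Shmt2 next at 0.304 and Aldh1l2 furthest at 1.49. Every member but Aldh18a1 thus lay further from that mean than these 5 genes.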

How the data were processed

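Stranded mRNA-focused libraries had been made from 200 ng of total RNA, per the labels' protocols. The submitters' processing notes name bcl2fastq 2.20.0.422, FastQC, STAR 2.5.2a, DESeq2 and the build mm10, and the sources used here give neither the counting program nor the annotation. The deposited values are whole numbers with a decimal comma in a unit that no label names, recorded as other and treated as read counts, since all were whole and at least 0. Count models were closed to that unit, so limma 3.58.1 (voom, offset 0.5, robust eBayes) was used in R 4.3.3, with no covariate beside the group. Both deposited files are identical, and 3 columns that match no labelled sample were left out.

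A gene was tested if 3 or more libraries reached the equivalent of 10 counts at the median library size and the sum was 15 or more. Scaling used trimmed means of M values from code written for the purpose. The total of the tested genes times that factor, was set to 1000000 for CPM. The Benjamini-Hochberg adjustment ran over every tested gene (threshold 0.05). Errors are SD of 3 libraries, or the moderated SE of a fold change. The procedure was tested on simulated data. Lengths came from GENCODE M21 by gene ID. Start and end were the same there for 1 of 10 members, so gene coordinates are those of the table, and no source used here ties them to a build. They may be of a later build than mm10 and cannot be set beside the promoter positions. Promoters came from RefSeq.

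Members and lists were chosen with earlier results of these data known. From each neighbouring list the 2 genes with the smallest p in each direction were named, beside the members, paralogs, Atf4, Myc and the 5 nearest profiles. Alternatives were other scalings, filters, tests, pseudocounts and gene lengths, left-out libraries and a block by letter. Of the listed genes, Tdh, Sdsl, Ftcd, Aspg and Prodh2 were not analysed here, and some genes that the naming rule covers are not reported here.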

Additional observations from a re-analysis of the deposited data

How the results depend on the processing

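All 10 members kept a negative log2 fold change under each of 16 alternatives, and 9 of them also kept an adjusted p under 0.05, the exception being Phgdh in 2 of the 16. With total count scaling 932 genes were called lower. Without urolithin A library a and DMSO library b, 1244 genes were called lower and 1429 higher, with fewer libraries in the fit. When each library was left out in turn, 1683 to 2508 genes were called lower and 1800 to 2763 higher, and 9 to 10 members were called lower. Deviations of same-lettered libraries from their group means correlated at -0.14 to 0.07 over genes, and those of differently lettered libraries at -0.26 to 0.29. With 3 libraries a group, these values cannot show whether the letters pair the libraries. A fit with the letter as a block called 2137 genes lower, 2359 higher and all 10 members lower, with 2 proliferation genes lower and 3 folate genes higher. The log2 fold change of the uncalled paralog Mthfd2l was -0.17 to 0.33 with 1 library left out. No paralog ratio changed sign under its 9 alternatives. With 3 libraries a group, Aldh1l2 and Pycr1 rested on the fewest counts among the members, and the lists were chosen with results known.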
